A study of Mus musculus with 12 samples.

Results

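The genes described here are Fras1 and 9 other genes of the basement membrane: Frem1, Frem2, Lama2, Lama4, Lamb1, Lamc1, Nid1, Nid2 and Hspg2. They were picked by symbol, and all but Frem1 are among the 22151 genes listed in the deposited table. The choice used measured values: Fras1 had been noticed for its difference between day 7 and sham, and the others were added as genes of the same structure. The levels of Fras1 in all 3 groups, and all values of day 7 against sham, are therefore descriptions with no test. Counts of genes called at day 7 against sham come from the fit over all genes and serve as background. Per-library values could be assigned for 8 of the 10, and all 8 passed the filter on low counts.

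Bulk RNA sequencing covered epididymal white adipose tissue (eWAT), the fat depot beside the testis, of 12 male C57bl6 mice (C57BL6/J in the series design) aged 12 to 14 weeks. Tissue was taken from 3 mice at day 7 and from 5 mice at day 3 after 70% partial hepatectomy, an operation after which the remaining liver regrows, and from 4 mice after a sham operation that left the liver whole. The comparisons address how this depot differs from sham while the liver regrows. The labels name no genetic change in any group, and the day on which the sham mice were sampled is not stated. Each library came from 1 mouse.

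A basement membrane is a thin sheet of extracellular matrix under epithelia and mesothelia and around blood vessels, nerves and each mature fat cell. Laminins, each built of an alpha, a beta and a gamma chain, and type IV collagen form a network each, and nidogens and the proteoglycan perlecan bind to both. FRAS1, FREM1 and FREM2 are large proteins that assemble into a complex on the outer face of epithelial basement membranes in the embryo, and loss of FRAS1 or FREM2 causes Fraser syndrome in people and blistering in mice.

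The libraries held between 13128853 and 23474246 counts in total. Adipoq, the fat cell hormone adiponectin, was at 328 to 3523 CPM (counts relative to library size, scaled for composition with edgeR's TMM) at day 7, 909 to 4331 CPM at day 3 and 1595 to 4227 CPM in sham, so its transcript was present in every library. Day 7 library 1 (328 CPM) was the lowest of the day 7 group in Adipoq and day 3 library 5 (4331 CPM) the highest of the day 3 group. Sham library 4 held 2315 CPM of the liver transcript Alb, against at most 5.99 CPM in the other sham libraries. Day 3 library 1 held 359 CPM of Xist and 0.643 CPM of the Y-linked Ddx3y, although the labels say male. All 12 libraries entered the tests, and values without these libraries stand where they change a call or a direction.

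Fras1 was lower at day 7 than in either other group. It was at 3.02, 4.50 and 4.07 CPM in day 7 libraries 1 to 3, at 8.43, 15.5, 14.4, 11.6 and 17.7 CPM in day 3 libraries 1 to 5, and at 11.9, 19, 18.3 and 21.8 CPM in sham libraries 1 to 4. Every day 7 library was below every day 3 and every sham library, while the day 3 and sham groups overlapped. The means were 3.86 ± 0.757 CPM at day 7 (SD, n = 3), 13.5 ± 3.59 CPM at day 3 (SD, n = 5) and 17.7 ± 4.18 CPM in sham (SD, n = 4). These levels rested on 48 to 68 counts per library at day 7, 118 to 267 at day 3 and 305 to 422 in sham. The edgeR log2 difference of Fras1 was -2.20 (SE 0.331) for day 7 and -0.39 (SE 0.267) for day 3, each set against sham. Day 7 set against day 3 gave -1.80 (SE 0.318). Over all settings and left-out libraries it stayed between -2.34 and -2.03 for day 7 against sham and between -1.93 and -1.54 for day 7 against day 3. The sham libraries are shared by both comparisons with sham, and the day 7 libraries by both that involve day 7. In bulk tissue, fewer cells of a type and less RNA per cell cannot be told apart. Fras1 (ENSMUSG00000034687) lies on chromosome 5 from 96521814 to 96932587 on the plus strand (mm39), and no listed gene overlaps it.

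Frem2, whose protein stabilises FRAS1 at the basement membrane, had no per-library values, and in the authors' deposited table its group means were 12.3 normalized counts at day 7, 4.2 at day 3 and 0.15 in sham. In the authors' deposited table its maximum over the libraries was 31.5 normalized counts and its mean 4.81, against a mean of 206 for Fras1. That maximum is more than 5 day 3 libraries with a mean of 4.2 can hold. It therefore lies at day 7, where 1 library held most of the mean of 12.3. Frem1, which encodes the third protein of the complex, is not among the listed genes and was not analysed here, nor was Frem3, a related gene. Of 8 genes listed as other partners of the complex, 5 had values, and 4 of these stood lower and 1 higher than sham at each day. The higher gene was Itga8 at day 7 (log2 difference 0.76) and Npnt at day 3 (0.32), both described below. Of all genes tested, 50.7% stood higher than sham at day 7 and 48.3% at day 3. Hmcn2, the matrix protein hemicentin 2, was at 3.34, 13.9 and 12.5 CPM in the day 7 libraries, at 6.00, 6.36, 3.96, 8.80 and 28.2 CPM in the day 3 libraries, and at 4.94, 27.5, 27.1 and 44.9 CPM in the sham libraries. Its groups overlapped, with sham library 1 low and day 3 library 5 high for their groups. The log2 difference of Hmcn2 from sham was -1.40 at day 7 and -1.29 at day 3 (edgeR adjusted p = 0.489 at day 3). Npnt, nephronectin, which FRAS1 family proteins anchor and which binds integrin alpha 8, was at 4.64 ± 1.24 CPM at day 7 (SD, n = 3), 5.96 ± 2.98 CPM at day 3 (SD, n = 5) and 4.77 ± 3.24 CPM in sham (SD, n = 4). Itga8, integrin alpha 8, was at 4.53 ± 6.85, 1.99 ± 2.21 and 2.67 ± 2.66 CPM at day 7, at day 3 and in sham, with an SD close to or above its mean in each group. Grip1, the adaptor that carries FRAS1 to the cell surface, had no per-library values.

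**Figure D1:**
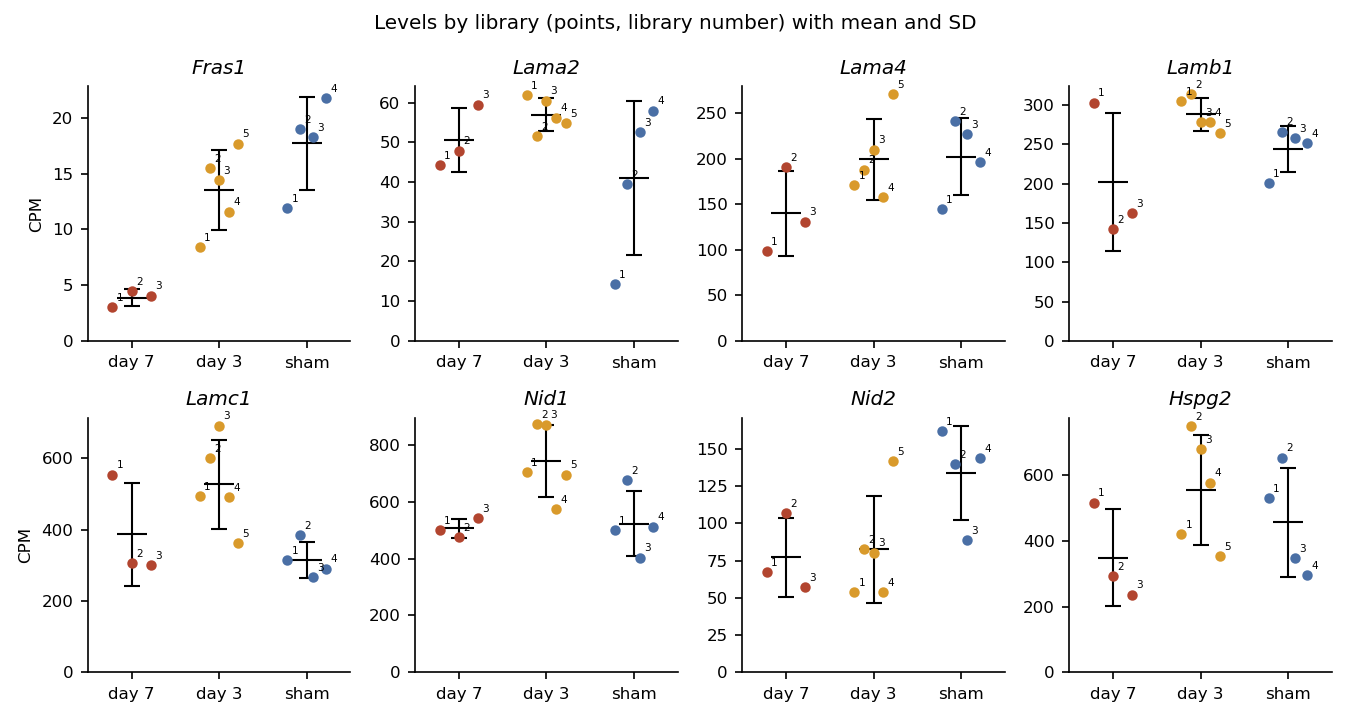
Levels of the 8 measured genes in each library, in CPM, with day 7 (3 libraries), day 3 (5 libraries) and sham (4 libraries) from left to right in each panel. Points are libraries with their numbers, and bars are the mean and SD. The day 7 libraries of Fras1 (3.02 to 4.50 CPM) lie below all others, while the groups of most other genes overlap.

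None of the 4 laminin chains lay wholly below sham at day 7, and positions are given in mm39. Lama2 (chr10:26856032-27495754, minus strand), the alpha 2 chain of muscle and nerve basement membranes, was at 44.2, 47.9 and 59.5 CPM in the day 7 libraries, at 61.8, 51.6, 60.5, 56.2 and 54.9 CPM in the day 3 libraries, and at 14.3, 39.4, 52.5 and 58 CPM in the sham libraries. Sham library 1 (14.3 CPM) lay below all other libraries, and the remaining values overlapped between the groups. The log2 difference of Lama2 at day 3 against sham was 0.47 (SE 0.304, edgeR adjusted p = 0.568), and it was 0.18 without sham library 1. Lama4 (chr10:38841511-38986184, plus strand), the alpha 4 chain of vessel and fat cell basement membranes, was at 98.3, 191 and 131 CPM in the day 7 libraries, at 171, 188, 210, 158 and 271 CPM in the day 3 libraries, and at 145, 241, 227 and 196 CPM in the sham libraries. Its day 7 group reached lower than the others but overlapped both. The log2 difference of Lama4 was -0.02 (SE 0.240, edgeR adjusted p = 0.983) at day 3 against sham and -0.51 (SE 0.266, edgeR adjusted p = 0.999) at day 7 against day 3. The first of these was 0.08 without sham library 2.

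Lamb1 (chr12:31315233-31379643, plus strand) and Lamc1 (chr1:153094668-153208532, minus strand) encode the beta 1 and gamma 1 chains, which many laminins contain. Lamc1 spans Gm8818 on the opposite strand, a gene with a mean of 11.4 normalized counts in the authors' deposited table, against 6918 for Lamc1. Lamb1 was at 303, 142 and 162 CPM in the day 7 libraries, at 305, 314, 278, 278 and 264 CPM in the day 3 libraries, and at 201, 266, 258 and 251 CPM in the sham libraries. Day 7 libraries 2 and 3 lay below every day 3 and sham library, and day 7 library 1 lay among the day 3 libraries. Lamc1 was at 554, 307 and 301 CPM in the day 7 libraries, at 494, 600, 692, 491 and 362 CPM in the day 3 libraries, and at 315, 385, 267 and 291 CPM in the sham libraries. All day 3 libraries except library 5 were above all sham libraries. Of the 8 genes with per-library values Lamc1 had the highest log2 difference at day 3 against sham, 0.75 (SE 0.254, edgeR adjusted p = 0.403), which did not pass the test. Without day 3 library 5 and day 7 library 1 the difference was 0.86 (edgeR adjusted p = 0.026). That fit called 1005 genes in all, where the fit to all libraries called 1. It also leaves out the only day 3 library of Lamc1 that was not above all sham libraries. The log2 difference of Lamb1 was 0.24 (SE 0.222, edgeR adjusted p = 0.705) at day 3 against sham. Between day 7 and day 3 it was -0.51 (SE 0.245, edgeR adjusted p = 0.999), and -0.95 without the same 2 libraries (edgeR adjusted p = 0.033). The fit without them called 441 genes in this comparison, where the fit to all libraries called 0. It also leaves out the only day 7 library within the day 3 range of Lamb1. Leaving out day 7 library 1 moved the day 7 difference of Lamc1 from sham to -0.03, against 0.30 with all libraries, and that of Lamb1 to -0.66, against -0.27.

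The paralogous nidogens stood on opposite sides of sham at day 3. Nidogens are glycoproteins that link laminin to type IV collagen, and the genes lie at chr13:13612136-13686854, plus strand, for Nid1 and chr14:19801333-19861855, plus strand, for Nid2 (mm39). Nid1 was at 501, 475 and 541 CPM in the day 7 libraries, at 703, 872, 870, 574 and 695 CPM in the day 3 libraries, and at 499, 676, 403 and 512 CPM in the sham libraries. All day 7 libraries lay below all day 3 libraries, and the sham group overlapped both. Nid2 was at 67.2, 107 and 57.2 CPM in the day 7 libraries, at 53.7, 82.9, 80.4, 54 and 142 CPM in the day 3 libraries, and at 162, 140, 88.6 and 144 CPM in the sham libraries. Day 3 library 5 (142 CPM) lay within the sham range, and the other day 3 libraries lay below every sham library.

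At day 3 against sham the log2 difference was 0.51 for Nid1 (SE 0.211, edgeR adjusted p = 0.428) and -0.69 for Nid2 (SE 0.304, edgeR adjusted p = 0.444), neither past the test. Without day 3 library 5 and day 7 library 1 the difference of Nid2 was -0.98 (edgeR adjusted p = 0.0451). The fit without them called 1005 genes in all, where the fit to all libraries called 1. It also leaves out the only day 3 library within the sham range of Nid2. Between day 7 and day 3 it was -0.56 for Nid1 (SE 0.232, edgeR adjusted p = 0.999) and -0.10 for Nid2 (SE 0.333, edgeR adjusted p = 0.999). The Nid2 value had the opposite sign, 0.22, without day 3 library 5. Nid2 shares 437 bases with Rtraf on the opposite strand, and strandedness is not stated, so reads there cannot be assigned to one gene. Rtraf was at 75.3 to 93.1 CPM at day 7, 77.5 to 131 CPM at day 3 and 74.2 to 96.2 CPM in sham.

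Hspg2 (chr4:137196080-137297941, plus strand) encodes perlecan, the heparan sulfate proteoglycan that ties basement membranes to growth factors and cells. It was at 517, 294 and 237 CPM in the day 7 libraries, at 421, 749, 681, 578 and 354 CPM in the day 3 libraries, and at 530, 654, 347 and 296 CPM in the sham libraries. All 3 groups overlapped, and each spread over a wide range. The log2 difference of Hspg2 was 0.29 (SE 0.325, edgeR adjusted p = 0.763) at day 3 against sham and -0.67 (SE 0.360, edgeR adjusted p = 0.999) at day 7 against day 3.

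Together, 5 of the 8 measured genes stood higher and 3 lower at day 3 than in sham, with a median log2 difference of 0.26 against -0.02 over all genes tested, of which 48.3% stood higher. None of the 7 genes other than Fras1 was among those called at an edgeR adjusted p under 0.05, which made up 0.00588% of the 17012 tested; DESeq2 called 0 of these 7 and 120 genes in all (0.708%). Apart from Fras1, the edgeR p before adjustment was under 0.05 for Lamc1, Nid1 and Nid2, as it was for 10.9% of all genes tested. At day 7 against sham 2 of the 8 stood higher and 6 lower, with a median of -0.33 against 0.01 over all genes, of which 50.7% stood higher. The edgeR test called 0.0% of all genes there and DESeq2 0.44%. Only Fras1 lay wholly below sham there, as did 4.07% of all genes. At day 7 against day 3 all 8 stood lower, with a median of -0.51 against 0.03 over all genes, where 52.8% of genes stood higher. Fras1 and Nid1 had no overlap between these groups, as did 1.37% of genes in the same direction. The edgeR test called 0.0% of genes in that comparison, and 3.34% had an unadjusted p under 0.05, as did Nid1. DESeq2 called 20 genes (0.116%), with none of the 7 other members among them.

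**Figure D2:**
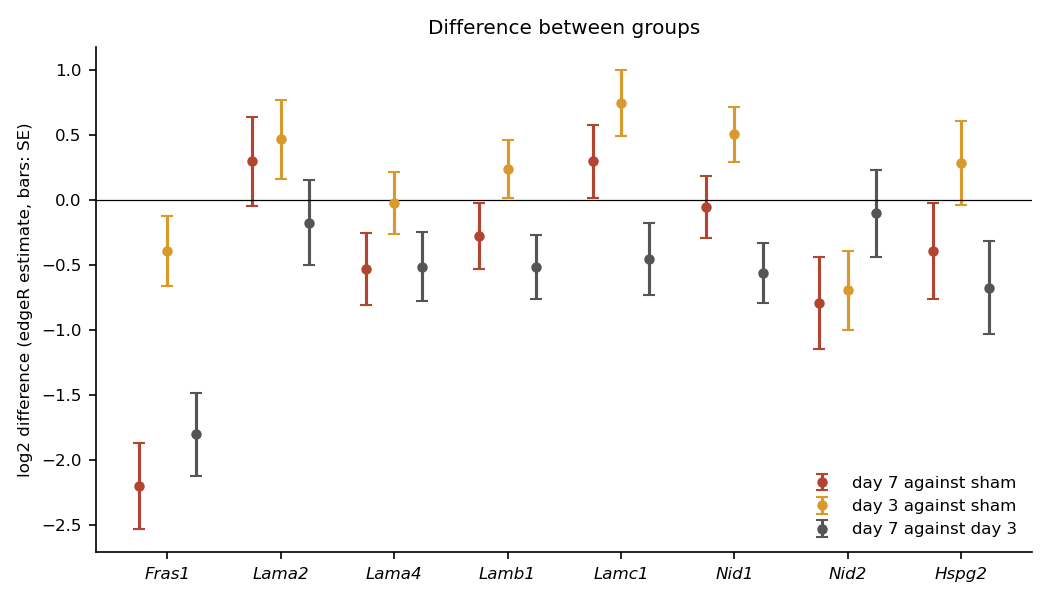
edgeR log2 differences of the 8 measured genes, with bars for the SE, for day 7 and day 3, each set against sham, and for day 7 set against day 3. Fras1 (-2.20 and -1.80 in the comparisons of day 7) lies apart from the other 7 genes, whose values run from -0.79 to 0.75.

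Scaled to exon length, Nid1 was the most abundant of the 8 and Fras1 the least in each group. In CPM per kb of exon, Nid1 stood at 72.8 ± 4.83 at day 7 (SD, n = 3), 107 ± 18.4 at day 3 (SD, n = 5) and 75.3 ± 16.3 in sham (SD, n = 4). Lamc1 was at 46.8 ± 17.5, 63.8 ± 15.1 and 38 ± 6.13 CPM per kb at day 7, at day 3 and in sham. Sham levels of Hspg2 (31.9 ± 11.6 CPM per kb), Nid2 (25.8 ± 6.07) and Lamb1 (24.6 ± 2.95) overlapped, as did those of Hspg2 with Lamc1 and of Lama4 with Nid2. Lama4 (16.8 ± 3.52 CPM per kb in sham) lay above Lama2 (2.51 ± 1.19), and the libraries of these 2 genes did not overlap. Fras1 was at 0.218 ± 0.0428 CPM per kb at day 7, 0.763 ± 0.203 at day 3 and 1.00 ± 0.236 in sham.

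Within families, the share of Nid2 among the nidogens separated day 3 from sham. In CPM per kb, Nid2 made up 15.3, 23.2 and 12.4% of the nidogens in the day 7 libraries, 9.29, 11.3, 11.0, 11.2 and 21.5% in the day 3 libraries, and 30.3, 21.8, 22.8 and 27.4% in the sham libraries. All day 3 libraries lay below all sham libraries, though day 3 library 5 (21.5%) was within 1 percentage point of sham library 2 (21.8%). Among the laminin alpha chains, Lama4 made up 40.7, 69.1 and 63.0% in the day 7 libraries and 60.7, 64.0, 67.5, 56.2 and 77.1% in the day 3 libraries. In the sham libraries it made up 73.7, 74.0, 73.7 and 73.3%, a range that all day 7 libraries and all day 3 libraries except library 5 fell below. In day 7 library 1 Lama5, the alpha 5 chain of epithelial and vessel basement membranes, made up 44.4%. Lamc1 made up 85.9 to 91.1% of the gamma chains at day 7, 81.5 to 93.2% at day 3 and 78.0 to 88.1% in sham, and these ranges overlapped. These shares were chosen after the values were seen and carry no test.

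**Figure D3:**
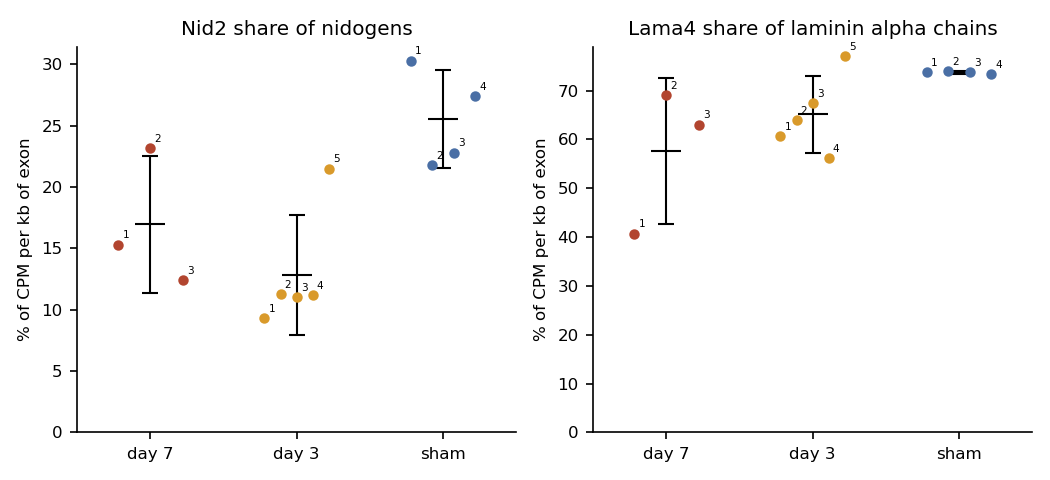
Share of Nid2 among the nidogens (left) and of Lama4 among the laminin alpha chains (right), in percent of CPM per kb of exon, for day 7, day 3 and sham. Points are libraries with their numbers, and bars are the mean and SD; the Nid2 share is 9.29 to 21.5% at day 3 and 21.8 to 30.3% in sham.

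The promoters of Lamb1, Nid1 and Hspg2 are shown as those of a laminin chain, a nidogen and perlecan, which differ in their number of GC boxes. RefSeq promoters (GRCm38.p6, 250 bases before to 50 after the start) were at hand for 6 of the 10 genes, and each of the following is on the plus strand, at chr12:31265043-31265342 for Lamb1, chr13:13437352-13437651 for Nid1 and chr4:137468553-137468852 for Hspg2. Capitals mark GGGCGG, the core of the GC box, or its reverse complement CCGCCC.
Lamb1: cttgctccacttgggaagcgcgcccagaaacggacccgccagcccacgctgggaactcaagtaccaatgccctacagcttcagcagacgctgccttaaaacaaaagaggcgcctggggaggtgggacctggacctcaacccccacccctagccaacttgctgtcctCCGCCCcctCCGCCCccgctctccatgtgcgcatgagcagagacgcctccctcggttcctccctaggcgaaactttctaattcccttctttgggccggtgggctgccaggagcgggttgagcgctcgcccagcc
Nid1: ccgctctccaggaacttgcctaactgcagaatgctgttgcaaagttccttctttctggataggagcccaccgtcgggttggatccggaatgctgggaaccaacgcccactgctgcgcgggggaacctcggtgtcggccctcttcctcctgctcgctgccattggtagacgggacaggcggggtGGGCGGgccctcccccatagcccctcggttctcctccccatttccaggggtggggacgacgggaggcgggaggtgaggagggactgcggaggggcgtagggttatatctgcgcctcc
Hspg2: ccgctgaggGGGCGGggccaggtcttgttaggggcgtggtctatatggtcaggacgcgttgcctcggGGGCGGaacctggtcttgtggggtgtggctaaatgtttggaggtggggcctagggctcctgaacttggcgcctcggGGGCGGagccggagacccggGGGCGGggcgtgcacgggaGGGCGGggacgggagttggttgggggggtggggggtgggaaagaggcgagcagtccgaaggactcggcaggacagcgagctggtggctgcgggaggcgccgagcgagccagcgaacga
Lamb1 holds 2 such matches, both as CCGCCC and 3 bases apart, Nid1 holds 1 and Hspg2 holds 5. On either strand the motif occurs in 35.7% of 32851 RefSeq promoters of this length. GC content is 63.7% for Lamb1, 64.7% for Nid1 and 70.3% for Hspg2, against a median of 52.7% over all promoters. The promoters not shown are less rich in GC: Lama2 has 50.3% and 1 match, and Frem2 has 60.3% and 0 matches. The Frem1 promoters have 46.3% and 55.7%, with 0 matches in each. GGAATG, the core of the site bound by TEAD factors, occurs 1 time in Nid1 and in neither of the other 2 shown, and in 14.7% of all promoters. Among the promoters not shown, it occurs 1 time in that of Frem2. TGANTCA, the AP-1 site, occurs in none of the 3 shown and in 7.81% of all promoters. A match is a run of letters and not a shown binding site.

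Over the 12 libraries the genes fell into different patterns of covariation. By Pearson correlation of log2 CPM, the genes most like Fras1 among 13062 ranked were Slc27a3, an acyl-CoA synthetase of the fatty acid transport family (r = 0.87, rho = 0.825), Poglut1, a glucosyltransferase of Notch receptors (r = 0.856, rho = 0.664), and Sncg, gamma-synuclein (r = 0.846, rho = 0.79). Kifap3, a kinesin-associated protein (r = 0.843, rho = 0.867), and Lrrc1, a scaffold protein of cell borders (r = 0.84, rho = 0.832), came next. Without day 7 libraries 1 and 3, the farthest from the median of Fras1, r was between 0.672 and 0.909 for these 5 genes. Over the 9 day 3 and sham libraries alone r was 0.184 for Poglut1 and 0.643 to 0.792 for the other 4. Lama4 was the closest of the 7 other genes to Fras1 (r = 0.78, rho = 0.79), with r = 0.45 without those 2 libraries and r = 0.77 for deviations from the group means. The libraries share depth and composition, which such a correlation includes, and genes were ranked on the same libraries that picked Fras1.

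Collagen IV chains, which form the second network of the basement membrane, tracked different members. Lamc1 correlated with Col4a1 at r = 0.88 and with Col4a2 at r = 0.90, and Hspg2 with the same chains at r = 0.84 and 0.80 (n = 12 libraries). Among 13062 genes, Col4a1 and Col4a2 had ranks 81 and 45 for Lamc1 and ranks 48 and 103 for Hspg2, so many other genes correlated more closely. Nid2 correlated with Col4a5 at r = 0.97, the highest of 13062 genes for Nid2, also at r = 0.97 for deviations from the group means, and with Col4a6 at r = 0.82. Lamc1 against Col4a5 and Col4a6 had r = -0.56 and -0.61. These pairs were picked after the values were seen and are given as descriptions. Col4a1 and Col4a2 overlap by 22 bases and Col4a5 and Col4a6 lie 1308 bases apart (mm39), each as a pair of neighbouring genes.

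**Figure D4:**
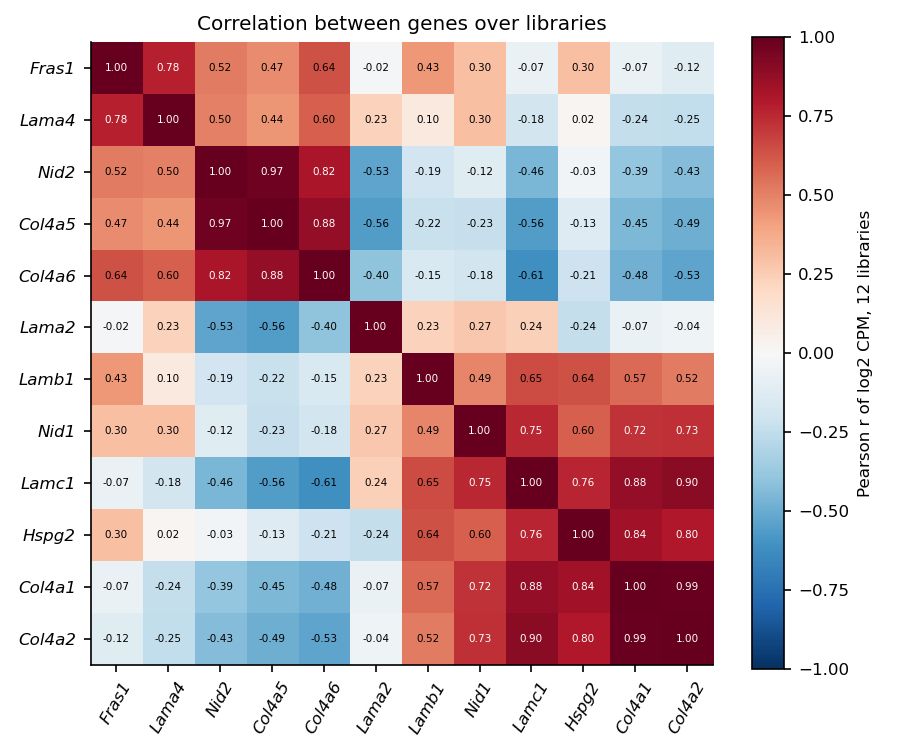
Pearson correlation of log2 CPM over the 12 libraries between the 8 measured genes and 4 collagen IV chains, with r in each cell and colour from -1 (blue) to 1 (red). Nid2, Col4a5 and Col4a6 form 1 block (r of 0.82 to 0.97), and Lamc1, Hspg2, Col4a1 and Col4a2 another (0.76 to 0.99).

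The collagen IV chains themselves stood on both sides of sham at day 3. Col4a1, the main alpha 1 chain, was at 1442, 567 and 752 CPM in the day 7 libraries, 1623, 2136, 1804, 1114 and 699 CPM in the day 3 libraries, and 1077, 1280, 561 and 450 CPM in the sham libraries. Col4a5, the alpha 5 chain, was at 21.5, 31.7 and 18.9 CPM in the day 7 libraries, 19.6, 22.3, 23.8, 15.1 and 39 CPM in the day 3 libraries, and 50.8, 41, 30.6 and 45 CPM in the sham libraries. The groups of both genes overlapped, and day 3 library 5 (699 CPM of Col4a1 and 39 CPM of Col4a5) lay within the sham range in each. The log2 difference at day 3 against sham was 0.81 for Col4a1 (edgeR adjusted p = 0.488), 0.82 for Col4a2 (edgeR adjusted p = 0.434), -0.80 for Col4a5 (edgeR adjusted p = 0.403) and -0.81 for Col4a6 (edgeR adjusted p = 0.407). Of the 6 chains, 2 stood higher (Col4a1 and Col4a2) and 4 lower than sham at each day, and 0 passed the edgeR test. At day 7 against day 3 the counts were also 2 and 4, but with other chains higher. There Col4a1 (-0.68) and Col4a2 (-0.59) stood lower, and the higher chains were Col4a3 (0.47, mean 1.48 CPM over all libraries) and Col4a5 (0.00). Col4a6 at day 7 (8.51 to 16.2 CPM) lay wholly below sham (21.8 to 31.2 CPM), as did 4.07% of all genes.

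No other gene of the pathway was called by edgeR, which called 0.00588% of all genes at day 3 against sham and 0.0% in both comparisons of day 7. Of 7 other laminin chains, 4 stood higher and 3 lower at day 3 than in sham, and 3 stood higher and 4 lower at day 7 than in sham. Lama3, the alpha 3 chain of epithelial basement membranes, was at 2.21 to 2.64 CPM at day 7 and 0.523 to 2.76 CPM at day 3, below all sham libraries (3.53 to 5.21 CPM). At day 3 against sham 2.14% of all genes were likewise wholly lower, and at day 7 against sham 4.07%. Lama5 and Lamb2 overlapped between groups, with log2 differences of 0.68 (edgeR adjusted p = 0.521) and 0.20 (edgeR adjusted p = 0.752) at day 3 against sham. Of 18 measured other components, 7 stood higher and 11 lower at day 3 and 5 higher and 13 lower at day 7 than in sham. Agrn, the proteoglycan agrin, was at 35.2 ± 10.6 CPM at day 7 (SD, n = 3), 37.9 ± 9.61 CPM at day 3 (SD, n = 5) and 57.2 ± 7.46 CPM in sham (SD, n = 4). Efemp1, a fibulin, was at 155 ± 59.7, 172 ± 103 and 356 ± 74.8 CPM in the same groups, and both had day 7 libraries wholly below sham, as did 4.07% of all genes.

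Of 21 measured receptors for laminin and collagen IV, 8 stood higher and 13 lower at day 3 and 9 higher and 12 lower at day 7 than in sham. Itgb1, the integrin beta 1 chain shared by most laminin receptors, was at 472 ± 151 CPM at day 7 (SD, n = 3), 561 ± 141 CPM at day 3 (SD, n = 5) and 384 ± 88.0 CPM in sham (SD, n = 4). Dag1, dystroglycan, which binds laminin and perlecan, was at 224 ± 6.51, 263 ± 28.1 and 215 ± 41.6 CPM in the same groups, and Itga6, integrin alpha 6, at 131 ± 25.4, 136 ± 24.9 and 137 ± 57.5 CPM. None of these receptors passed the edgeR test. Among 15 enzymes and chaperones of collagen and matrix assembly, 6 stood higher and 9 lower at day 3 and 5 higher and 10 lower at day 7. Lox, lysyl oxidase, which cross-links collagens, was at 268 ± 278, 814 ± 651 and 173 ± 90.2 CPM at day 7, at day 3 and in sham, with a log2 difference of 2.24 at day 3 against sham (edgeR adjusted p = 0.411). Of 12 proteins that link these receptors to the cytoskeleton, 8 stood higher and 4 lower at day 3 and 7 higher and 5 lower at day 7 than in sham. Parva, alpha-parvin, was at 122 ± 5.66 CPM at day 7 (SD, n = 3), 244 ± 79.5 CPM at day 3 (SD, n = 5) and 202 ± 63.6 CPM in sham (SD, n = 4), and its day 7 libraries lay below all others. Of all genes tested, 4.07% had day 7 libraries wholly below sham and 1.37% had them wholly below day 3.

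Most transcripts listed as markers of mesothelial cells, the epithelium that covers the depot, stood lower than in sham at day 7 and at day 3. Of 17 mesothelial markers, 15 stood lower and 2 higher at day 7 than in sham, with a median log2 difference of -0.82, 6 lay wholly below sham (Upk3b, Gpm6a, Lrrn4, Wt1, Nkain4 and Bnc1), as did 4.07% of all genes, and 0 passed the edgeR test, which called 0.0% of all genes. At day 3, 13 of these markers stood lower and 4 higher than in sham, with a median log2 difference of -0.44, and 0 passed the edgeR test. Only Upk3b lay wholly below sham at day 3, as did 2.14% of all genes. Summed over the list the markers were at 2087, 652 and 661 CPM in day 7 libraries 1 to 3, 1027 to 2139 CPM at day 3 and 1636 to 2097 CPM in sham. Upk3b, a membrane protein that marks mesothelium, was at 229, 78.9 and 90.4 CPM in the day 7 libraries, 195 to 300 CPM in the day 3 libraries and 313 to 520 CPM in the sham libraries, and neither it nor Wt1 (23.5 to 43.7 CPM at day 7) was at 0 in any library. In day 7 library 1, where Fras1 (3.02 CPM) was lowest, the mesothelial sum (2087 CPM) was within the sham range. Slpi made up 575 CPM of that sum. The 6 markers named above were below every sham library there, which their naming as wholly below sham already requires. Msln, mesothelin, was at 114 ± 114, 196 ± 60.6 and 150 ± 30 CPM at day 7, at day 3 and in sham, and overlapped. The part of these cells in the level of Fras1 was not tested.

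**Figure D5:**
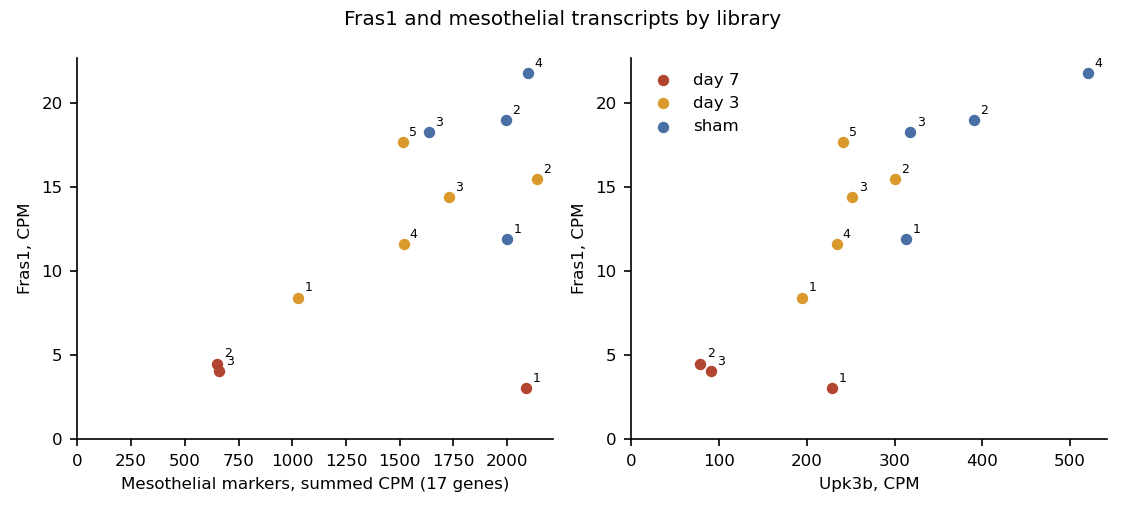
Fras1 in CPM against the summed CPM of 17 mesothelial markers (left) and against Upk3b in CPM (right), 1 point per library with its number, coloured by day 7, day 3 and sham. Day 7 libraries 2 and 3 are low on both axes, and day 7 library 1 has 2087 CPM of the markers with 3.02 CPM of Fras1.

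Other cell types that hold basement membranes were followed by the summed level of their markers. Endothelial markers summed to 1019 to 1695 CPM at day 7, 836 to 1878 CPM at day 3 and 1016 to 2029 CPM in sham, with Pecam1 at 207 ± 38.9 CPM at day 7 (SD, n = 3), 265 ± 82.0 CPM at day 3 (SD, n = 5) and 194 ± 74.8 CPM in sham (SD, n = 4). Markers of pericytes and smooth muscle summed to 395 to 1191, 518 to 1257 and 527 to 1115 CPM, with Rgs5 at 87.4 ± 74.3, 65.1 ± 78.5 and 70.5 ± 31.4 CPM. Markers of adipose progenitors and fibroblasts summed to 3418 to 4616 CPM at day 7, below sham (4720 to 6603 CPM), and to 3652 to 7390 CPM at day 3. Of these 16 genes, 13 stood lower and 3 higher at day 7 than in sham, with a median log2 difference of -0.41, and Pdgfra was at 144 ± 49.9, 146 ± 55.4 and 148 ± 30.9 CPM at day 7, at day 3 and in sham. Mature fat cell markers summed to 25414 to 48041, 29355 to 43440 and 25910 to 50481 CPM. Leukocyte markers summed to 1112 to 5312, 1001 to 2760 and 1286 to 3192 CPM. Liver markers summed to 951 to 8364, 2439 to 7941 and 1565 to 12086 CPM; most of this sum is Cyp2e1, which fat tissue also makes. The part of these cells in the values above was not tested.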

How the data were processed

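RNA sequencing of eWAT gave 1 library for each of 12 mice. Per the submitters' processing notes, the authors used Partek, STAR and DESeq2 with build mm39; versions and settings are not given in the sources used here. The labels name polyA RNA and the series design total RNA. All fits used the deposited expected counts, headed raw counts per the file headers, of which 28.5 to 39.6% per library were not whole and were rounded. The deposited normalized signal (counts divided by 1 factor per library by the authors, with other deposited summaries of it) served for matching values to genes and for the means quoted from the authors' deposited table. The authors' p-values, ratio and log2 ratio columns were deposited too and support no statement here.

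Per-library values do not stand beside their genes in the deposited table. Each of 18086 lines was given to the gene with the same deposited mean and maximum (relative tolerance 3e-05): 18070 matched 1 gene, 16 were settled by neighbours, and 0 stayed unassigned. The authors' group means then lay within 5% of the assigned values for 100% of genes compared. Another 4065 genes, with 0.0784% of the normalized counts, have no values. The deposited gene ends are 1 base past the last base and were reduced by 1. Each pair of libraries within a group differed by more than sampling noise.

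Counts were tested with edgeR 4.0.16 (R 4.3.3, limma 3.58.1, statmod 1.5.0): filterByExpr with a minimum count of 10, TMM scaling, and a robust quasi-likelihood F-test over all 12 libraries with 1 coefficient per group, with Benjamini-Hochberg adjustment over 17012 genes at 0.05. The fit was tested on simulated data. Alternatives were RLE or library-total scaling, other count filters, DESeq2 1.42.0, voom, fits of the 2 groups compared, a replicate block and left-out libraries. Correlations used a prior count of 2 and genes with a mean of at least 1 CPM. Exon lengths are from GENCODE M21 (GRCm38) and serve only for scaling. All listed genes with values were named; of each companion list, the most abundant, those that do not overlap with a log2 difference over 1 and a preset group were eligible, and the text names part of them. The genes and lists were chosen with earlier results of these data known.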

Additional observations from a re-analysis of the deposited data

How the results depend on the processing

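The direction of Fras1 held in every comparison under all settings (day 3 against sham -0.59 to -0.15). Genes called at day 3 against sham numbered 1, and 120 with DESeq2, 0 with voom, 0 with the replicate block, 0 without sham library 4 and day 3 library 1, and 1005 without day 3 library 5 and day 7 library 1 (0 to 2 leaving out 1 library). At day 7 against sham edgeR called 0, DESeq2 67, voom 15, and 17 genes passed without day 3 library 5 and day 7 library 1 (0 to 3 leaving out 1). At day 7 against day 3 these were 0, 20, 2 and 441 (0 to 4 leaving out 1). Of the 8 measured genes, 2 stood higher at day 7 than in sham, 1 without those 2 libraries and 1 to 3 leaving out 1 library. At day 7 against day 3 none stood higher, 1 with the replicate block, 1 without those 2 libraries, and 0 to 1 leaving out 1. Lama4 at day 3 against sham changed sign (0.01) without sham library 4 and day 3 library 1, and was -0.18 to 0.08 leaving out 1. Nid2 at day 7 against day 3 changed sign with the replicate block (0.12) and without day 3 library 5 and day 7 library 1 (0.28), and was -0.41 to 0.22 leaving out 1. The cause was not tested. The replicate numbers share only a number: the deviations of same-numbered libraries from their group means correlated at -0.371 to 0.187. Fras1 rests on 48 to 68 counts per day 7 library, the fewest of the 8.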
